A study of Homo sapiens with 4 samples.

Results

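The 8 genes described here encode cell surface receptors for the TGFβ superfamily of secreted signals. Of these, 4 encode type I receptors (TGFBR1, ACVR1B, ACVR1 and BMPR1A) and 4 encode type II receptors (TGFBR2, ACVR2A, ACVR2B and BMPR2). They were picked out by gene symbol, and all 8 were found among the 19775 genes of the deposited table. The RNA came from wild-type H1 cells, an established line of human embryonic stem cells, after 12 h in E8 medium with 1 µM XMD892, which inhibits the kinase ERK5. E8 is a defined medium that holds insulin, FGF2 and TGFβ, so the cells of every sample of the series received a ligand of TGFBR2 and TGFBR1. The 2 samples in E8 alone for 12 h were not analysed here, because no column of the table carries their treatment and time. The values below are therefore levels in 2 libraries of treated cells, called replicate 1 and replicate 2, and hold no effect of the compound. The table has 1 further column named for XMD892 at 12 h, with replicate number 3, which matches no sample's label; it was not used here. No test between treatments was run, and no p-value is given. Nothing in the labels tells whether separate cultures were used, and the spread of the 2 libraries may be technical.

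Signals of this family bind a complex of type I and type II receptors, all of them serine/threonine kinases that cross the membrane. The type II kinase phosphorylates the type I receptor next to its kinase domain, and the activated type I receptor phosphorylates SMAD proteins, which join SMAD4 and act on genes in the nucleus. TGFBR1 and ACVR1B pass the signal to SMAD2 and SMAD3, whereas ACVR1 and BMPR1A pass it to SMAD1, SMAD5 and SMAD9. In primed human pluripotent cells the SMAD2 and SMAD3 branch, fed by TGFβ, activin or NODAL, is known to sustain NANOG expression, and BMP signals are known to push the cells toward differentiation.

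The libraries held 18528689 reads on listed genes in replicate 1 and 20217648 in replicate 2. The receptors together took 9165 reads in replicate 1, or 0.0495% (95% Clopper-Pearson interval 0.0485 to 0.0505), and 8790 reads in replicate 2, or 0.0435% (0.0426 to 0.0444). Without molecular identifiers in the reads, all intervals here reflect counting error alone. Pluripotency markers were present as the label says: all 10 of 10 were at 1 RPKM or more in both libraries, and they summed to 2529 RPKM in replicate 1 and 2862 RPKM in replicate 2. POU5F1 stood at 734 and 1430 RPKM, and without it the other 9 summed to 1795 and 1432 RPKM, lower in replicate 2. Genes listed as markers of other cells were also counted, and their level alone does not show that such cells were present. Of 10 mesenchymal or fibroblast markers 6 were listed, of which 3 were at 1 RPKM or more in both libraries, and the 6 summed to 110 RPKM in replicate 1 and 74.6 in replicate 2; COL3A1, LUM, DCN and POSTN were not listed. That direction rested on TAGLN, at 62.2 and 5.34 RPKM: without it the other 5 summed to 47.9 and 69.2 RPKM. COL1A1 was 7.42-fold higher in replicate 1 and THY1 2.04-fold higher in replicate 2. Of 6 neural markers 4 were listed and 1 reached that level, NES; PAX6 and NEUROD1 were not listed. The summed level was 174 RPKM in replicate 1 and 91.3 in replicate 2, of which NES made up 170 and 89.7 RPKM; the other 3 summed to 4.16 and 1.67 RPKM. Of 8 endothelial markers 5 were listed and 1 reached that level, the receptor KDR, with sums of 9.71 and 10.1 RPKM; PECAM1, CDH5 and EMCN were not listed. Of the 6 endoderm and 6 mesoderm markers 3 and 4 were listed, and none reached 1 RPKM in both libraries; their sums in replicates 1 and 2 were 1.40 and 2.12 RPKM for endoderm and 1.39 and 3.43 RPKM for mesoderm. SOX17, FOXA2, GATA6, TBXT and HAND1 were not listed.

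Transcripts of all 8 receptors were detected in both libraries, at levels that spread over 6.99-fold between the highest and the lowest mean. Levels are given as RPKM, that is, reads scaled by exon length and by the library's total reads, so that genes of different length can be compared. All 8 reached 1 RPKM in both libraries, as did 59.5% of all genes with a length and 71.3% of the protein-coding genes, so detection alone does not set the receptors apart. The median receptor stood at 5.42 RPKM, the median gene at 2.31 RPKM and the median protein-coding gene at 4.18 RPKM. In bulk RNA, fewer cells with a transcript and less of it per cell cannot be told apart.

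**Figure D1:**
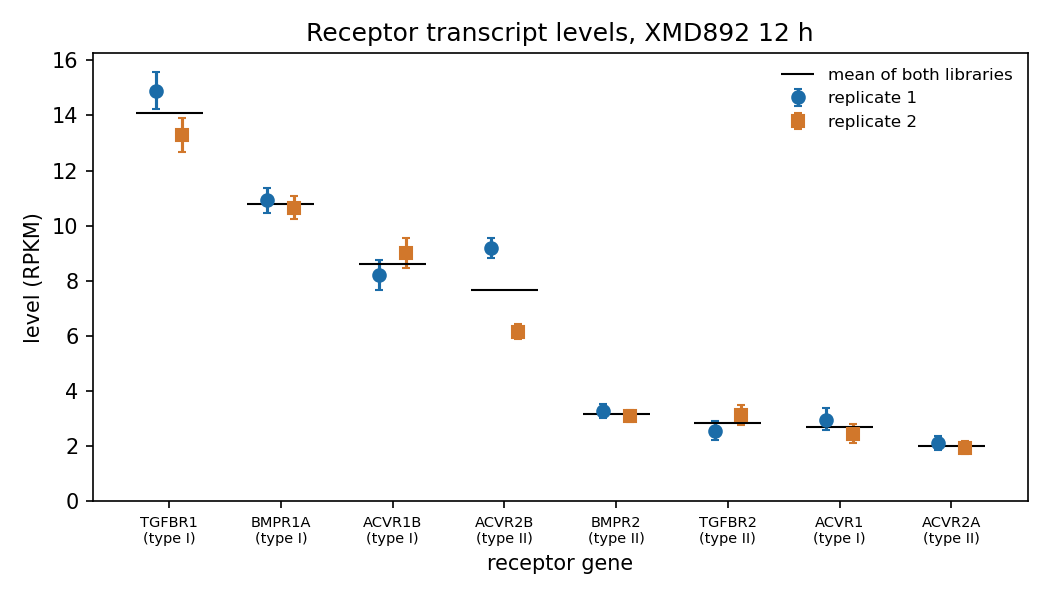
Level of each receptor transcript (RPKM, vertical axis) in replicate 1 (circles) and replicate 2 (squares), with 95% Clopper-Pearson counting intervals and the mean as a bar. TGFBR1 and BMPR1A lie above 10 RPKM in both libraries, ACVR1B and ACVR2B lie between 6.15 and 9.18 RPKM, and the other 4 lie at or below 3.27 RPKM.

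Among the type I receptors, TGFBR1 was the highest and ACVR1 the lowest. TGFBR1, the type I receptor for TGFβ itself, stood at 14.9 RPKM in replicate 1 and 13.3 RPKM in replicate 2, on 1888 and 1839 reads (14.1 ± 1.13 RPKM, SD, n = 2). Its mean level was above that of 78.7% of protein-coding genes. The gene maps to chr9:99104038-99154192, plus strand (GRCh38), with 10 annotated transcripts and a merged exon length of 6844 bases. BMPR1A, a type I receptor for BMP2 and BMP4, stood at 10.9 and 10.6 RPKM, on 2308 and 2456 reads (10.8 ± 0.191 RPKM, SD, n = 2). It had the smallest relative spread of the 8 on this scale, with an SD of 1.77% of the mean. BMPR1A maps to chr10:86756601-86932838, plus strand. Processed pseudogenes, BMPR1AP1 on chromosome 6 and BMPR1AP2 on chromosome 11, resemble its transcript, so some of its reads may have been assigned elsewhere or left out.

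ACVR1B, also called ALK4, is the type I receptor for activin and NODAL. It stood at 8.20 RPKM in replicate 1 and 9.01 RPKM in replicate 2, on 865 and 1036 reads (8.61 ± 0.566 RPKM, SD, n = 2). The gene maps to chr12:51951667-51997078, plus strand. ACVR1, also called ALK2, a type I receptor for BMPs such as BMP6 and BMP7, was far lower, at 2.96 and 2.43 RPKM on 219 and 196 reads (2.70 ± 0.377 RPKM, SD, n = 2). It maps to chr2:157736444-157875862, minus strand. The counting interval of ACVR1 ran from 2.58 to 3.38 RPKM in replicate 1 and from 2.10 to 2.79 RPKM in replicate 2. These separate intervals overlapped, which does not show that the levels were equal.

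Among the type II receptors, ACVR2B was the highest, and it was the member whose libraries lay farthest apart. ACVR2B binds activins, NODAL and several BMPs. It stood at 9.18 RPKM in replicate 1 and 6.15 RPKM in replicate 2, on 2679 and 1958 reads (7.67 ± 2.14 RPKM, SD, n = 2). Its counting intervals, 8.84 to 9.54 RPKM and 5.88 to 6.43 RPKM, did not overlap. ACVR2B maps to chr3:38453851-38493142, plus strand, and its merged exon length of 15744 bases exceeds that of its longest transcript, 11821 bases, by the largest factor of the 8, 1.33. With the longest transcript as the length, ACVR2B came to 10.2 RPKM.

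BMPR2, the type II receptor dedicated to BMPs, stood at 3.27 and 3.09 RPKM on 720 and 743 reads (3.18 ± 0.125 RPKM, SD, n = 2). It maps to chr2:202376936-202567751, plus strand. TGFBR2, the type II receptor for TGFβ, stood at 2.56 RPKM in replicate 1 and 3.12 RPKM in replicate 2, on 223 and 297 reads (2.84 ± 0.399 RPKM, SD, n = 2). It maps to chr3:30606502-30694142, plus strand. ACVR2A, the paralog of ACVR2B with a similar choice of ligands, was the lowest of the 8, at 2.10 and 1.94 RPKM on 263 and 265 reads (2.02 ± 0.114 RPKM, SD, n = 2). It maps to chr2:147844517-147930826, plus strand. Exons of ORC4 on the opposite strand overlap 6.35% of its exon length, and the strand setting of the counting is not given in the sources used here, so some reads could belong to either gene.

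Only part of the order of the levels stood clear of the spread between the libraries. Of the 7 neighbouring pairs in the order of the means, 4 had ranges that did not overlap: TGFBR1 above BMPR1A, BMPR1A above ACVR1B, ACVR2B above BMPR2, and ACVR1 above ACVR2A. These ranges rest on 2 values per gene and leave out counting error. In replicate 2 the counting intervals of ACVR1 (2.10 to 2.79 RPKM) and ACVR2A (1.71 to 2.18 RPKM) overlapped, and in replicate 1 they did not. The step from ACVR2B to BMPR2 was the largest, 2.81-fold in replicate 1 and 1.99-fold in replicate 2. The other 3 pairs could not be ordered. ACVR2B was above ACVR1B in replicate 1 and below it in replicate 2. BMPR2 was above TGFBR2 in replicate 1, and in replicate 2 their ratio was 0.989. TGFBR2 was below ACVR1 in replicate 1 and above it in replicate 2. With the longest transcript as the length ACVR1 moved from the seventh place to the fifth, at 3.53 RPKM, ahead of BMPR2 and TGFBR2. Under that length the means of BMPR1A, ACVR1B and ACVR2B lay close together, at 10.9, 10.7 and 10.2 RPKM. The step from BMPR1A to ACVR1B therefore depended on the length used. ACVR2A was the lowest and TGFBR1 the highest under both lengths.

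Type I transcripts exceeded type II transcripts in both libraries when each type was summed. The type I sum was 37.0 RPKM in replicate 1 and 35.4 RPKM in replicate 2, and the type II sum was 17.1 and 14.3 RPKM. The ratio was 2.16 and 2.47 (2.32 ± 0.221, SD, n = 2), and 2.15 in the mean with the longest transcript as the length. TGFBR1 and BMPR1A together made up 69.8% of the type I sum in replicate 1 and 67.7% in replicate 2, and ACVR2B alone 53.7% and 43.0% of the type II sum. These ratios compare transcripts, not proteins at the cell surface.

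**Figure D2:**
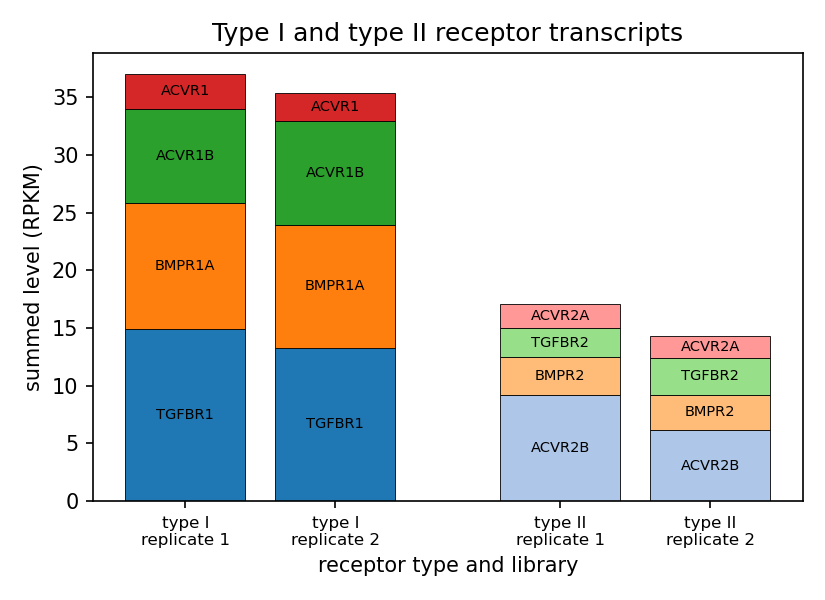
Summed level (RPKM, vertical axis) of the 4 type I and the 4 type II receptor transcripts in each library, with each gene as a segment. Type I bars reach 37.0 and 35.4 RPKM and type II bars 17.1 and 14.3 RPKM, and the ACVR2B segment is smaller in replicate 2.

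The receptors of each ligand were then set against each other. For TGFβ, TGFBR1 exceeded TGFBR2 5.82-fold in replicate 1 and 4.26-fold in replicate 2. For BMPs, BMPR1A exceeded ACVR1 3.68-fold and 4.38-fold, and their sum exceeded BMPR2 4.25-fold and 4.23-fold, the closest match between the libraries of the ratios computed. BMPs can also use ACVR2A and ACVR2B. With these added to BMPR2, the ratio was 0.954 in replicate 1 and 1.17 in replicate 2, on either side of equality. For activin and NODAL, ACVR2B exceeded its paralog ACVR2A 4.38-fold in replicate 1 and 3.18-fold in replicate 2. ACVR1B stood at 0.727 of the sum of ACVR2A and ACVR2B in replicate 1 and at 1.11 of it in replicate 2, so the direction of that ratio differed between the libraries.

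RefSeq promoter windows (GRCh38.p14, 250 bases before to 50 after a transcript start) were matched for all 8 genes. Of the 19 windows of these genes, the one nearest to the 5′ end of the gene's longest GENCODE transcript was taken for each. The windows of TGFBR1, ACVR2A and ACVR2B are printed, since these genes had the highest level, the lowest level and the largest gap between libraries. The RefSeq transcript starts of the printed windows lie 6 (TGFBR1), 39 (ACVR2B) and 512 (ACVR2A) bases from that GENCODE end. Capitals mark the GC box GGGCGG on either strand, a motif bound by SP1 family factors.
TGFBR1 (chr9:99104833-99105132, plus strand): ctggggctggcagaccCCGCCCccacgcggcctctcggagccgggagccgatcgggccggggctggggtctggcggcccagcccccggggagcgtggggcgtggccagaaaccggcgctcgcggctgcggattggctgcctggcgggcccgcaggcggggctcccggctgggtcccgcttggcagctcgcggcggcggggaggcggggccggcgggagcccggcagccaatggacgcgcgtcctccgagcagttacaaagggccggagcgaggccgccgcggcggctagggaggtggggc
ACVR2B (chr3:38453640-38453939, plus strand): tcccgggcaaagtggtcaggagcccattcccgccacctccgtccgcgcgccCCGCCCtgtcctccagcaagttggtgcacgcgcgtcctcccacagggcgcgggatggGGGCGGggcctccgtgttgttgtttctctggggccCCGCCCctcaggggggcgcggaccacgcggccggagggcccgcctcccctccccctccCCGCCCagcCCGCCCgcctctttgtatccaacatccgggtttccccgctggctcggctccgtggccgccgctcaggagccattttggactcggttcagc
ACVR2A (chr2:147844779-147845078, plus strand): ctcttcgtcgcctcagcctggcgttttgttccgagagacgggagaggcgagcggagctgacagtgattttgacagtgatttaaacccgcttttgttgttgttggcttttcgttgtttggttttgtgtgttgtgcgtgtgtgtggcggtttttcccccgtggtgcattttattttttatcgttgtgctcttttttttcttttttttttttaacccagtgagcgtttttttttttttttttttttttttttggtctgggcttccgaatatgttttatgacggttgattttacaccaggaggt

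The TGFBR1 window was 80.0% G and C with 40 CpG dinucleotides and 1 GC box, and the ACVR2B window was 73.0% with 31 CpG dinucleotides and 5 GC boxes. The ACVR2A window was 41.3% with 16 CpG dinucleotides, no GC box and long runs of T. It lies inside the gene, wholly downstream of the 5′ end of the longest GENCODE transcript. The sequence before that end was not described. Over all 34943 windows of this length the median was 58.7% G and C and 14 CpG dinucleotides. At least 1 GC box was found in 5 of the 8 receptor windows and in 44.9% of all windows. The motif TATAAA, on either strand, was found in 1 receptor window, that of BMPR1A, and in 11.6% of all windows. The BMPR1A window ends before the gene's GENCODE start, and its RefSeq transcript start lies 887 bases from the GENCODE end used for the match. The BMPR2 window also ends before its gene's GENCODE start, and for BMPR2 this distance is 609 bases. ACVR1B had the window with the most CpG dinucleotides, 56, and ACVR1 the one with the fewest, 9. A match is a description of these letters and does not show that a factor bound there.

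None of the 8 receptors differed 2-fold or more between the libraries, and 10.9% of the 16148 genes examined did. With only 8 genes, this count does not set the receptors apart. Genes were examined from a mean of 10 normalized counts upward, on the authors' size factor scale. The gap is the log2(normalized count + 1) of replicate 2 after that of replicate 1 is subtracted. Each gap sets 1 library against 1 other, without the unused 12 h column, and has no replicate check. ACVR2B had the widest gap, at 2876 normalized counts in replicate 1 and 2066 in replicate 2, a log2 difference of -0.48 (counting interval -0.56 to -0.39). TGFBR2 followed in the other direction, at 239 and 313 normalized counts, with a log2 difference of 0.39 (0.13 to 0.65). ACVR1B stood at 929 and 1093 normalized counts, with a log2 difference of 0.24 (0.10 to 0.37). These 3 intervals excluded equal levels, as did those of 58.1% of all genes examined. A gap wider than that of ACVR2B was seen for 34.4% of the genes examined.

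On the size factor scale, the other 5 receptors had counting intervals that included equal levels. RPKM scales by total reads instead. Under that scaling the log2 difference moved from -0.063 to -0.16 for TGFBR1 and from -0.18 to -0.28 for ACVR1. Intervals of these differences were not computed for total reads, so equal levels cannot be called included or excluded there. The separate intervals of TGFBR1, 14.2 to 15.6 RPKM in replicate 1 and 12.7 to 13.9 RPKM in replicate 2, did not overlap. ACVR1 stood at 235 and 207 normalized counts, a log2 difference of -0.18 (-0.47 to 0.10). TGFBR1 stood at 2027 and 1941 normalized counts (log2 difference -0.063), and BMPR1A at 2478 and 2592 (0.065). The smallest gaps were those of BMPR2, at 773 and 784 normalized counts (0.021), and ACVR2A, at 282 and 280 normalized counts (-0.014). The median absolute gap was 0.12 for the 8 receptors and 0.32 over all genes examined. These medians were not matched for level, and the genes examined include lower counts than those of the receptors. The receptors' reads per library ran from 196 to 2679. From a mean of 50 normalized counts upward, a minimum that all 8 also passed, 711 of 12609 genes were 2-fold or more apart.

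Of the 8 receptors 4 were higher in replicate 2, against 52.1% of all genes examined, and each receptor type contributed 2. With total reads as the scale, which moved the median gap of all genes from 0.023 to -0.078, 2 of 8 were higher in replicate 2, TGFBR2 and ACVR1B. The share of all genes higher in replicate 2 was not computed on that scale, so this count cannot be set against the 52.1%. BMPR1A and BMPR2 turned under that scale, and ACVR2B came to -0.58. The neural marker sum, mostly NES, was also higher in replicate 1, as ACVR2B was. So was the pluripotency marker sum without POU5F1 (1795 against 1432 RPKM). With POU5F1 that sum was higher in replicate 2 (2529 against 2862 RPKM). The endothelial, endoderm and mesoderm sums were higher in replicate 2. The mesenchymal sum was higher in replicate 1 with TAGLN (110 against 74.6 RPKM) and higher in replicate 2 without it (47.9 against 69.2 RPKM). Whether other cells were present was not tested, nor was any part of their transcripts in the ACVR2B gap.

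**Figure D3:**
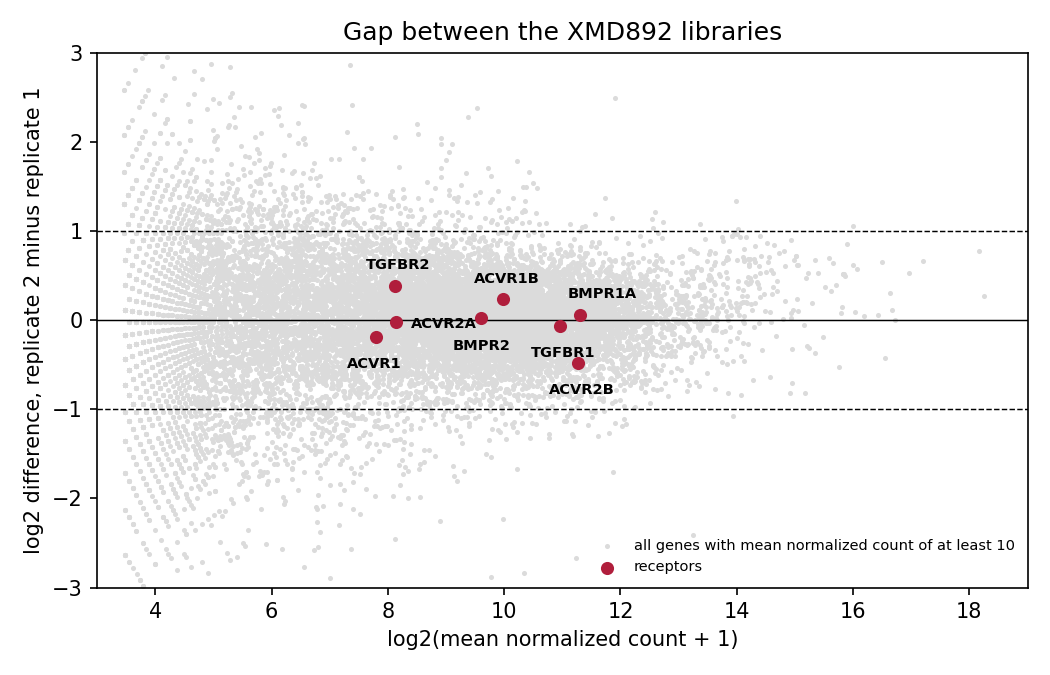
Gap between the libraries (log2 difference, replicate 2 minus replicate 1, vertical axis) against the mean level (log2 of the mean normalized count + 1) for the 8 receptors in red and all genes examined in grey. The receptors lie between -0.48 and 0.39, inside the dashed lines that mark 2-fold, and 61 genes beyond 3 on either side are outside the axis.

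Receptors and co-receptors outside the 8 were mostly low. Of 12 such genes 8 were listed, their median stood at 1.21 RPKM, and 4 reached 1 RPKM in both libraries. TDGF1, the GPI-anchored NODAL co-receptor CRIPTO, stood at 116 ± 20.6 RPKM (SD, n = 2), above each of the 8 receptors. BAMBI, a pseudoreceptor without kinase activity that blocks signalling, followed at 9.38 ± 0.294 RPKM, on 411 and 429 reads. The BMP co-receptors RGMA and RGMB stood at 2.91 ± 0.994 and 1.42 ± 0.328 RPKM. BMPR1B, a close relative of BMPR1A, was the lowest listed, at 0.0976 ± 0.0171 RPKM on 10 and 14 reads. ACVRL1, AMHR2, CFC1 and HJV were not listed. None of the 8 listed genes differed 2-fold between the libraries, and 4 were higher in each. For this list and those below, the shares to set beside such counts are those over all genes. Of all genes examined, 10.9% differed 2-fold or more and 52.1% were higher in replicate 2. Of the protein-coding genes, 71.3% reached 1 RPKM in both libraries. The lists are too short for their counts to set them apart.

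The SMAD genes, whose proteins the receptors act on, were all listed. Of the 8, 7 reached 1 RPKM in both libraries, and their median stood at 4.31 RPKM. SMAD7, an inhibitory SMAD that the pathway itself induces, was the highest at 10.8 ± 0.365 RPKM (SD, n = 2). SMAD5, of the BMP branch, stood at 8.99 ± 0.0538 RPKM, the shared partner SMAD4 at 6.74 ± 1.37 RPKM and SMAD3, of the activin and TGFβ branch, at 5.34 ± 0.710 RPKM. SMAD9 was the lowest at 0.244 ± 0.162 RPKM, on 38 and 15 reads, and it was the 1 member that differed 2-fold or more, toward replicate 1.

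Genes for regulators of the receptors were all detected. Each of the 14 was at 1 RPKM or more in both libraries, none differed 2-fold between them, and their median stood at 5.89 RPKM. STRAP, a receptor-associated WD40 protein, stood at 117 ± 5.96 RPKM (SD, n = 2) and FKBP1A, the immunophilin that binds the unstimulated type I receptor, at 100.4 ± 3.06 RPKM. SKI and SKIL, corepressors that bind SMADs, stood at 24.05 ± 9.53 and 16.4 ± 0.756 RPKM. USP15, a deubiquitinase that acts on the receptor complex, was the lowest at 2.03 ± 0.0689 RPKM.

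Ligand genes were lower than the receptor genes in the median. Of 16 ligands 13 were listed, their median stood at 0.683 RPKM, and 5 reached 1 RPKM in both libraries; GDF1, MSTN and BMP5 were not listed. The highest were GDF3, BMP7, NODAL and GDF11, and BMP7 stood at 7.88 ± 1.13 RPKM and GDF11 at 3.46 ± 0.276 RPKM (SD, n = 2). INHBA, which encodes the subunit of activin A, was the lowest, at 0.0450 ± 0.0467 RPKM on 12 and 2 reads. Its ratio, 6.10-fold toward replicate 1, has a counting interval from -5.81 to -0.44 on the log2 scale. Of the 12 ligands examined for gaps, 8 were higher in replicate 1, and 1 differed 2-fold or more in each direction, BMP2 toward replicate 1 and GDF3 toward replicate 2.

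In the set called secreted inhibitors, which also holds the latent TGFβ binding protein LTBP1, 9 of 10 genes were listed. Their median stood at 0.986 RPKM, and 4 reached 1 RPKM in both libraries. CER1 was not listed. LTBP1, which holds latent TGFβ in the matrix, was the highest at 13.1 ± 2.12 RPKM (SD, n = 2). The activin-binding proteins FSTL3 and FST stood at 2.84 ± 0.277 and 2.56 ± 0.539 RPKM, and LEFTY1, a NODAL antagonist, at 4.12 ± 2.24 RPKM. GREM1, a BMP antagonist, was the lowest, with 31 reads in replicate 1 and 1 in replicate 2. GREM1 and LEFTY1 were the 2 of the 9 that differed 2-fold or more, in opposite directions.

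A set of 12 known target genes of the SMADs was listed in full. Of the 12, 11 reached 1 RPKM in both libraries, and their median stood at 8.01 RPKM. ID3, ID1 and ID2, which encode inhibitors of helix-loop-helix factors and respond to BMP signals, stood at 77.3 ± 8.32, 47.1 ± 8.88 and 27.6 ± 17.6 RPKM (SD, n = 2). The lowest was LEFTY2, at 0.986 ± 0.488 RPKM. The libraries lay 2-fold or more apart for 3 of the 12, against 10.9% of all genes examined. These 3 were named after their values were seen. ID2 was 2.83-fold and LEFTY1 2.41-fold higher in replicate 2, and ID4 was 2.11-fold higher in replicate 1 (237 against 114 reads). Reads of LEFTY1 and LEFTY2, neighbouring near-copies, can be split wrongly. The median gap of the 12 was 0.088, against 0.023 over all genes examined.

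**Figure D4:**
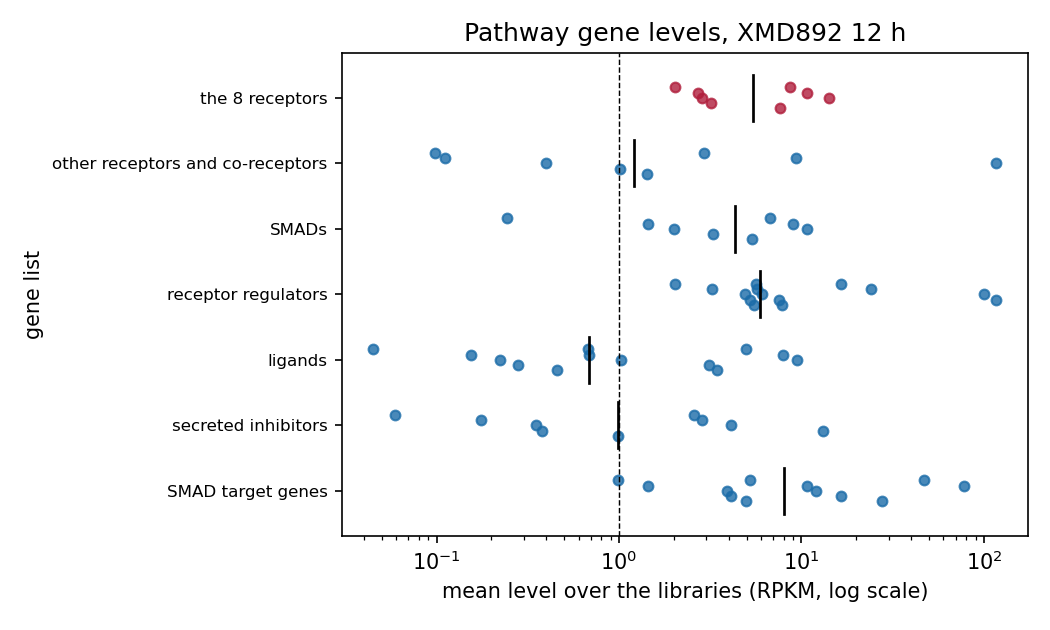
Mean level over the libraries (RPKM, log scale, horizontal axis) of the 8 receptors and of the listed genes in each pathway list, with the median of each as a bar and 1 RPKM as a dashed line. The receptors span 2.02 to 14.1 RPKM, while the ligands and the secreted inhibitors reach down to 0.0450 and 0.0590 RPKM.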

How the data were processed

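Poly(A)-selected RNA was sequenced as paired ends, per the labels' protocols. The authors deposited 1 table of normalized signal, gene counts divided by 1 size factor per library, as the values show: all (100%) were whole multiples of 1 step per column within 0.01 reads. Trimmomatic 0.36, STAR, featureCounts 1.5.3, DESeq2 1.26.0 and hg38 are named, without roles, per the submitters' processing notes. Columns were matched to samples by treatment, time and replicate number. Of 9 columns, 7 matched none of the 4 samples and were not used. The untreated columns carry another time than the 12 h of the untreated samples' labels, so the planned edgeR test of XMD892 against E8 was not run.

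Reads were recovered by dividing by the step (size factors 0.932 and 0.948). RPKM used merged exon lengths of GENCODE 29, found for 19283 symbols; 492 had none. TMM factors came from edgeR 4.0.16 in R 4.3.3, and other steps ran in Python 3.11.15. Intervals are 95% Clopper-Pearson. Scripts were tested on simulated data. The members and the gene lists were chosen with earlier results of these data known. From each pathway list the text names up to 4 genes with the highest RPKM, the lowest listed gene and, where 5 or fewer are missing, those not listed; genes outside this rule, and the cell type markers, are named for a gap of at least 2-fold, as a marker that decides a sum or is not listed, or as an example of a role, after their values were seen. No genes of similar pattern were sought, since that needed at least 6 columns. An item of 1 list is not reported here.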

Additional observations from a re-analysis of the deposited data

How the results depend on the processing

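Of the alternative lengths and scales for the levels, only the longest transcript as the length changed the order of the means. It put ACVR1 ahead of BMPR2 and TGFBR2. The median level of the 8 receptors, 5.42 RPKM, was 6.87 RPKM with the longest transcript as the length and 18.9 in TPM, a unit that rescales every gene of a library alike, and 5.39 on the size factor scale. Leaving out each replicate in turn gave 4.64 to 5.74 RPKM for it and 2.16 to 2.47 for the ratio of type I to type II sums. At a minimum of 5 RPKM in both libraries 4 of the 8 receptors counted as detected. The share of all genes at that minimum was not computed, so this count is not compared with other genes. The number of genes at least 2-fold apart between the libraries, 1761 at a mean normalized count of at least 10, was 3350 with no minimum and 711 at a minimum of 50, where fewer genes were examined; with a pseudocount of 5 it was 1401, with total reads 1816 and with TMM 1763. None of the 8 receptors was among them in any of these settings. The marker sums without 1 member, and the BMP ratio with all 3 type II receptors, were added after seeing the data. Counts of 196 to 297 reads limit the precision for ACVR1, TGFBR2 and ACVR2A. No paired analysis was possible because only 1 of the groups had columns that matched its samples; for the same reason the alternatives planned for XMD892 against E8 (filter, tool, replicate block, left-out replicates) were not run.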
